A study of Rattus norvegicus with 15 samples.

Results

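Collagens are secreted proteins built from 3 alpha chains wound into a triple helix, and they are the main structural proteins of the extracellular matrix. The alpha chain genes of the rat were followed here in the subfornical organ, chosen as all probe sets of the array whose single gene symbol is Col, a number, a and a number. This gave 58 probe sets for 41 genes, of 14217 genes with a symbol of their own on the array. Where a gene had several probe sets, as 14 did, the one with the highest average across the 15 arrays stands for it. Of the 41 genes, 33 were bright enough to be tested and 8 were not, as described below.

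The fibrillar collagens (types I, II, III, V, XI, XXIV and XXVII) form or shape the banded fibrils of connective tissue, and types IV and VI form the network of the basement membrane and beaded filaments beside it. In the brain, collagen is sparse in the tissue between cells and is made mainly in the meninges, in blood vessel walls and in the stroma of the choroid plexus. The subfornical organ lies at the roof of the third ventricle, is rich in fenestrated capillaries with wide perivascular spaces, and adjoins the choroid plexus.

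The animals were male Sprague Dawley rats aged 10 to 12 weeks, in 3 groups of 25: control, water-deprived and food-deprived. Organs of 5 animals were pooled for each array, so that a group has 5 arrays and the spread between arrays is that between pools. The labels give 48 h without food for the food-deprived animals and no treatment protocol for the others. The design text of the series, read literally, applies denial of food to every condition, and how long water was withheld is not stated in the labels or the design text.

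The values are signal intensities on a linear scale, in the authors' units, in which the trimmed mean of every array is 100.02 to 100.03. Differences are on the scale log2(signal + 16), which understates changes of dim genes, with the standard error (SE) of a limma fit across all probe sets. A gene is called when its Benjamini-Hochberg adjusted p over all 21729 probe sets tested is below 0.05. The signal of one probe set is not compared with that of another, because probe sets differ in their response. In whole tissue, fewer cells of a type and less RNA per cell cannot be told apart.

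The arrays fall into 2 sets by the ratio of 5′ to 3′ signal of the Actb and Gapdh control probe sets, a measure that follows RNA integrity and amplification length. The high set has log2 ratios from -0.86 to -0.71 and holds all food-deprived arrays with arrays 1 and 2 of water deprivation. The low set has ratios from -2.81 to -1.24 and holds all controls with arrays 3 to 5 of water deprivation. Water-deprived array 3, at -2.81, lies apart, with the next lowest at -1.67 on control array 5. Control and food-deprived arrays never share a set, so their difference has no value within a set and cannot be told apart from the array set without the water-deprived arrays. Each comparison was therefore also fitted with the array set as a term, a choice made after the data were seen. Of 7 markers of the subfornical organ, 6 were tested and their summed signal ranged from 945 to 2145 over the 15 arrays, and Nos1 was below the filter. The set difference of these markers is that within water deprivation, arrays 1 and 2 against 3 to 5. All 6 lay lower in the high set (median log2 -0.98, 3 called). Of all 11510 tested genes, 5453 lay lower and 8.09% were called lower. The mean log2 value of the list was 7.05 and 7.01 on water-deprived arrays 1 and 2 and 8.01, 8.05 and 7.88 on arrays 3 to 5. On the controls it was 6.70 to 7.87 and on the food-deprived arrays 7.08 to 7.25, so these 2 groups overlap. In the fit on groups the median difference of these markers from control was 0.59 in water deprivation and -0.036 in food deprivation. With the set as a term it was 0.98 (1 called higher, beside 0.0434% of all tested genes) and 0.86 (0 called).

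**Figure D1:**
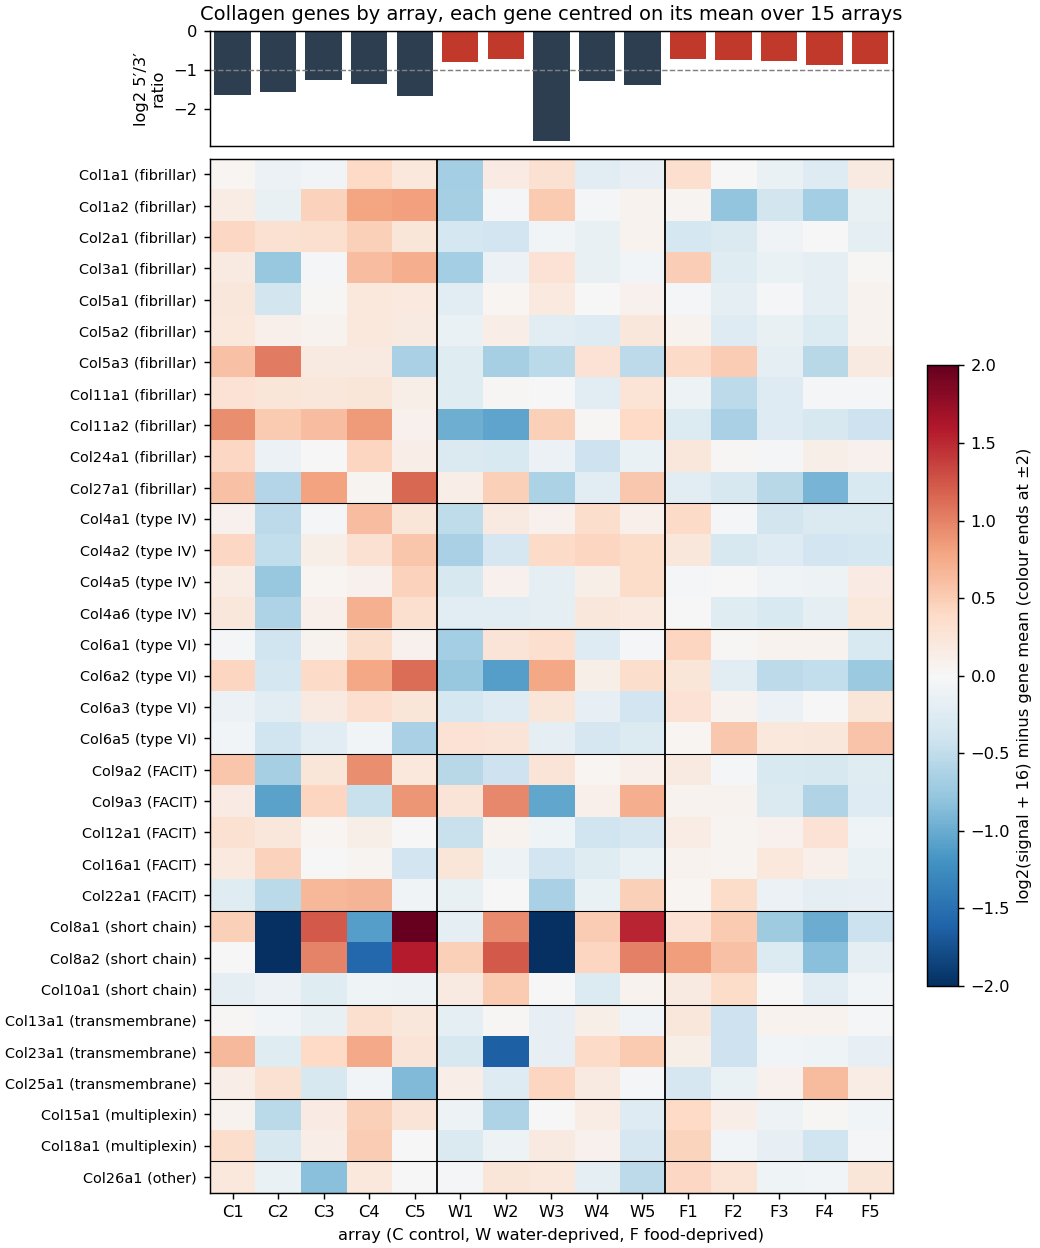
Log2(signal + 16) of the 33 tested collagen genes (rows, by structural class) on each of the 15 arrays (columns), as the difference from the gene's own mean over 15 arrays, with the log2 5′/3′ signal ratio of each array above (bars, red for the 7 arrays of the high set and dark for the 8 of the low set). Col8a1 and Col8a2 have the widest range, with their lowest values on control arrays 2 and 4 and water-deprived array 3.

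Over the 33 tested genes, 5 collagens differed between food-deprived and control rats and none between water-deprived and control rats. In food deprivation, Col2a1, Col11a1, Col11a2 and Col1a2 fell and Col6a5 rose. These 5 genes are 15.2% of the 33, beside 5.73% of all tested genes called in that comparison (3.12% higher and 2.62% lower). At an unadjusted p under 0.05 there were 8 of 33 (24.2%), beside 21.3% of all tested genes. In water deprivation limma called 0 of the 33, with 6 (Col2a1, Col5a3, Col11a1, Col11a2, Col12a1 and Col24a1) at an unadjusted p under 0.05. Of all tested genes, 0.00869% were called in water deprivation and 6.59% passed unadjusted. Between water and food deprivation limma called 0 of 33, with 3 (Col6a5, Col12a1 and Col24a1) at an unadjusted p under 0.05, beside 0.0956% called and 12.5% unadjusted among all genes.

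With the array set as a term, limma called 0 of the 33 collagens in each comparison. An unadjusted p under 0.05 was found for 3 in water deprivation (5.34% of all tested genes), for 1, Col27a1, in food deprivation (8.44%) and for 4 between the deprivations (11.1%). Among all tested genes, 0.0434% were called in water deprivation and 0% in the other 2 comparisons with that term. The 5 collagen calls in food deprivation cannot be told apart from the array set. Leaving out 1 array at a time kept the call of Col2a1 in all 15 fits and lost each of the others in 8 to 10 of 15. Both comparisons against control use the same 5 control arrays.

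Most collagens lay below control in both deprivations. The median log2 difference from control over the 33 genes was -0.21 in water deprivation and -0.16 in food deprivation, with 26 of 33 genes below 0 in each, against medians over all tested genes of -0.0005 and 0.027. With the array set as a term the medians were -0.12, with 25 of 33 genes below 0, and 0.0029, with 15 of 33 below 0. Quantile normalization turned the sign of 4 genes in food deprivation, again with 26 of 33 below 0, and gave 0 higher and 4 lower calls in place of 1 and 4. Centring each array on its median gave 28 of 33 below 0, with 0 higher and 6 lower calls, and moved the median of all probe sets in food deprivation from 0.046 to -0.055.

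**Figure D2:**
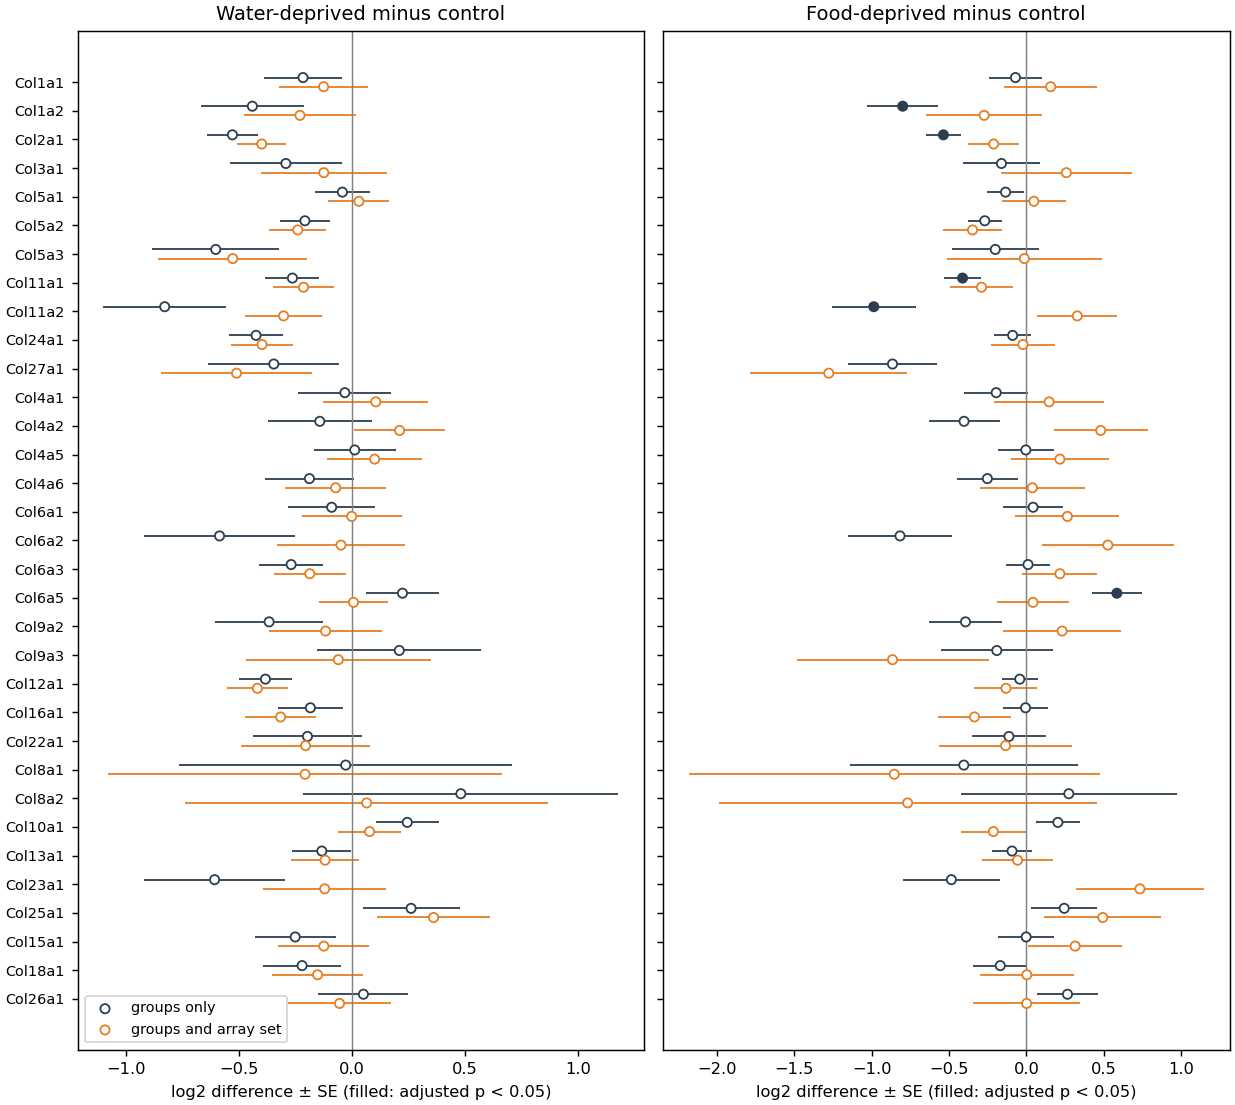
Log2 difference from control (points) ± SE (lines) of the 33 tested collagen genes in water deprivation (left) and food deprivation (right), from the fit on groups (dark) and the fit on groups and array set (orange). Filled points mark an adjusted p below 0.05, and all 5 of them are in food deprivation in the fit on groups.

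Among the 11 fibrillar genes, all of which were tested, 4 fell in food deprivation, beside 2.62% of all tested genes, and 0 changed in water deprivation. Without regard to the test, 11 of 11 lay below control in both comparisons, beside 5769 of 11510 genes in water and 5235 of 11510 in food deprivation, with median log2 differences of -0.35 in water deprivation and -0.27 in food deprivation. With the array set as a term, 10 of 11 lay below control in water deprivation (median -0.24) and 7 of 11 in food deprivation (median -0.022).

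Col2a1 encodes the single chain of type II collagen, the fibril collagen of cartilage and of the vitreous of the eye. Its signal was 56.6, 51.1, 52.3, 60.2 and 48.6 on control arrays 1 to 5, 26.7, 25.7, 36.2, 33.3 and 41.3 on the water-deprived arrays, and 26.6, 28.5, 36.1, 38.5 and 31.4 on the food-deprived arrays. Every control array lay above every array of both deprived groups. Col2a1 fell 1.45-fold in food deprivation (log2 -0.54, SE 0.11, n = 5 and 5, limma adjusted p = 0.0108). In water deprivation the difference had the same size (log2 -0.53, SE 0.11), with a limma adjusted p of 0.386. It was the 1 collagen that passed the limma F test over the 3 groups (adjusted p = 0.0182, 2.08% of all tested genes called).

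The water-deprived arrays of the low set, 36.2, 33.3 and 41.3, are also all below the lowest control, 48.6, so that Col2a1 was below control within the low array set. The within-set difference was log2 -0.40 in water deprivation, and food deprivation with the same term gave log2 -0.21, neither called. Col2a1 was called in food deprivation in each of the 15 fits that left out 1 array (log2 -0.58 to -0.49, highest adjusted p 0.0326). The other 2 Col2a1 probe sets were too dim to be tested.

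Type XI collagen, encoded by Col11a1 and Col11a2 with a chain derived from Col2a1, sits at the core of type II fibrils and limits their width. The Col11a1 signal was 88.6, 84.9, 84.4, 85.6 and 76.3 in control, 56.2, 70.6, 69.5, 56.7 and 86.7 in water deprivation, and 63.9, 43.5, 55.7, 66.8 and 68.3 in food deprivation. The food-deprived arrays all lay below the controls, and water-deprived array 5 lay among the controls. Col11a1 fell in food deprivation (log2 -0.41, SE 0.12, limma adjusted p = 0.0448), and its second tested probe set, at log2 -0.15 (SE 0.15), was not called. In water deprivation it was at log2 -0.26 (SE 0.12).

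For Col11a2 the signal was 345, 256, 275, 326 and 185 on the control arrays, 80.5, 75.1, 248, 176 and 234 on the water-deprived arrays, and 141, 104, 142, 135 and 126 on the food-deprived arrays. All 7 arrays of the high set lay below all 8 of the low set, water-deprived arrays 1 and 2 lowest of all. Col11a2 fell 1.98-fold in food deprivation (log2 -0.99, SE 0.27, limma adjusted p = 0.0369) and was at log2 -0.83 (SE 0.27, adjusted p = 0.719) in water deprivation. Between the array sets it was 2.49-fold lower in the high set (log2 -1.31, SE 0.21, adjusted p = 0.0016). With the set as a term the food-deprived difference turned to log2 0.33 and the water-deprived one was log2 -0.30.

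Type I collagen, the main fibril protein of meninges and vessel adventitia, is made of chains from Col1a1 and Col1a2. The Col1a2 signal was 267, 215, 337, 424 and 437 in control, 146, 235, 353, 233 and 252 in water deprivation, and 249, 132, 183, 143 and 215 in food deprivation. The highest food-deprived array lay above control array 2 and below the other controls. Col1a2 fell 1.74-fold in food deprivation (log2 -0.80, SE 0.23, limma adjusted p = 0.0427) and its other probe set was at log2 -0.34 (SE 0.17, not called). In water deprivation it was at log2 -0.44 (SE 0.23), and the array set term brought both differences to -0.27 (food) and -0.23 (water).

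Col1a1 did not pass. Its signal was 77.0, 68.2, 71.6, 104 and 89.1 in control, 41.0, 85.6, 96.5, 61.9 and 64.8 in water deprivation, and 98.7, 75.4, 67.3, 59.8 and 86.8 in food deprivation. The 3 groups overlap, with log2 differences from control of -0.22 (SE 0.17) in water and -0.07 (SE 0.17) in food deprivation. The second Col1a1 probe set disagreed in size. It read 77.0, 52.1, 77.8, 121 and 175 in control and 71.7, 38.9, 34.8, 22.7 and 31.4 in food deprivation, a log2 difference of -1.02 (SE 0.38, limma adjusted p = 0.0996). On water-deprived arrays 1 and 2 it read 12.8 and 18.1, and on arrays 3 to 5 it read 105, 72.1 and 70.1. This probe set was lower in the high array set (log2 -1.63, adjusted p = 0.0100).

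Col3a1 encodes type III collagen, which forms thin fibrils with type I in vessel walls and reticular tissue. Its signal was 227, 110.5, 194, 313 and 338 in control, 118, 182, 245, 177 and 189 in water deprivation, and 286, 165, 179.9, 170.3 and 201 in food deprivation. The control arrays spanned both other groups. The differences were log2 -0.29 (SE 0.25) in water and -0.16 (SE 0.25) in food deprivation, neither called. Without control array 2, the lowest control, these became -0.52 and -0.39, and without control array 5, the highest, -0.15 and -0.017, none of them called.

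The remaining fibrillar genes, of which none was called in the 2 comparisons with control, include the type V chains that set fibril width. Col5a1, Col5a2 and Col5a3 were at log2 -0.04, -0.21 and -0.60 in water deprivation and -0.13, -0.27 and -0.20 in food deprivation. The second Col5a1 probe set fell further, with mean signals of 122 in control, 109 in water deprivation and 73.8 in food deprivation. The first averaged 122, 117 and 109. All 5 food-deprived arrays of Col5a2 lay below the lowest control, which occurred for 5.24% of all tested genes. The second Col5a2 probe set did not separate the groups. It read 109, 86.4, 108, 107 and 151 in food deprivation, beside 110 to 129 in control. Col27a1, a fibrillar collagen of cartilage and developing tissues, had a signal of 141, 54.6, 169, 93.2 and 219 in control and 75.3, 68.7, 56.0, 39.6 and 69.2 in food deprivation. Its control values spread from 54.6 to 219, and the log2 difference of -0.86 (SE 0.29) had an adjusted p of 0.073. With the array set as a term it was -1.28, also not called.

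Col24a1 is a minor fibrillar collagen. The signal was 51.0, 30.2, 34.0, 51.5 and 39.0 in control, 25.2, 24.7, 30.1, 21.5 and 29.5 in water deprivation, and 42.9, 35.1, 32.6, 38.5 and 37.0 in food deprivation. The water-deprived arrays all lay below both other groups, with array 3 close to control array 2. Of the 33 collagens, Col24a1 and Col2a1 lay wholly below control in water deprivation, as did 0.33% of all tested genes. Col24a1 alone lay wholly below food deprivation (1.8% of all tested genes) and 0 of 33 lay wholly above it (1.36%). The limma log2 difference from control was -0.42 (SE 0.12, adjusted p = 0.608), and -0.40 with the array set as a term.

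**Figure D3:**
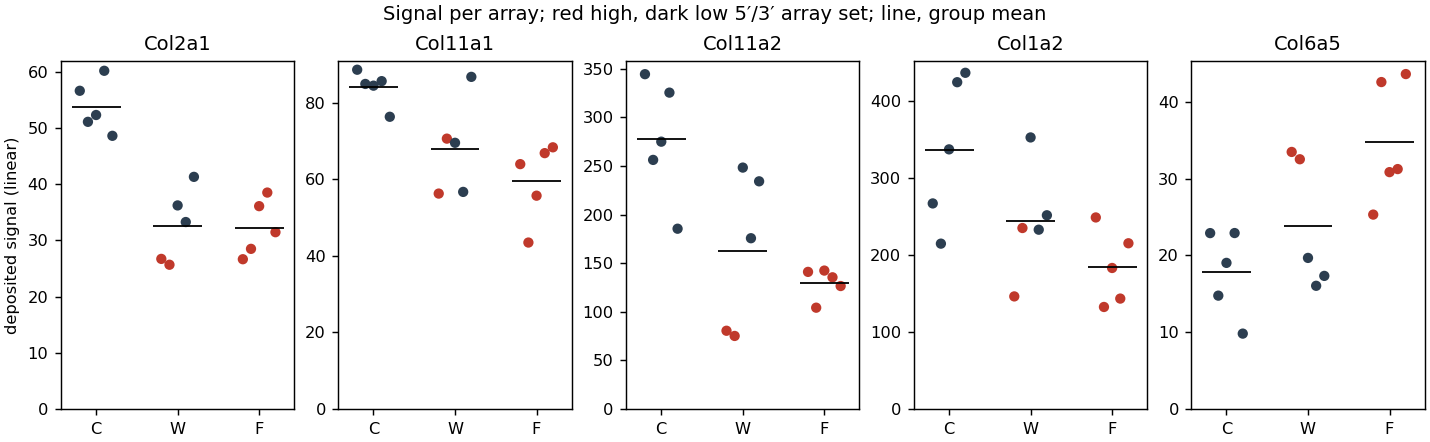
Deposited signal (linear scale) of the 5 collagen genes called in food deprivation, by array (points, red for the high and dark for the low 5′/3′ array set) for control (C), water-deprived (W) and food-deprived (F) groups of 5, with the group mean as a line. All 5 control arrays of Col2a1 lie at 48.6 or above and all deprived arrays at 41.3 or below, while the Col11a2 arrays separate by colour.

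Type IV collagen is the sheet-forming collagen of basement membranes, and in the brain it lines every vessel. Col4a1 and Col4a2 encode the 2 chains of its ubiquitous form and lie head to head, transcribed in opposite directions from a shared promoter. In RefSeq (GRCr8) their starts are 76 bases apart on chromosome 16. The window that both promoters share is shown because both genes are read from it. It is read on the Col4a1 strand, chr16:84885471-84885646 (+), with capitals for the CCAAT box (CCAAT) and GC boxes (GGGCGG) found on either strand.

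Col4a1-Col4a2 shared window: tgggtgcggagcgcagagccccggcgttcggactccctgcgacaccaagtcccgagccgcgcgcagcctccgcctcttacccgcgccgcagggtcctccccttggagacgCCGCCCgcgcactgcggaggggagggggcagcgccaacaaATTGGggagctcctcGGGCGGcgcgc

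This stretch holds 1 CCAAT box, 2 GC boxes and no TATAAA. Over RefSeq promoters of 300 bases, CCAAT was found in 37.5% of 33469, GGGCGG in 33.1% and TATAAA in 14.2%. Among 35 collagen promoter windows, some of them alternative or overlapping, they were found in 28.6%, 54.3% and 11.4%. A match describes the letters of the window and is not a measured binding site.

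Of 5 type IV genes on the array, 4 were tested and 0 were called in any of the 3 group comparisons. The Col4a1 signal was 100.2, 60.2, 90.0, 152 and 113 in control, 60.9, 108, 100.5, 124 and 101 in water deprivation, and 127, 90.0, 68.8, 73.5 and 73.5 in food deprivation. The Col4a2 signal was 161, 78.6, 127, 148 and 178 in control, 68.4, 89.2, 157, 162 and 154 in water deprivation, and 138, 89.6, 94.8, 85.2 and 87.2 in food deprivation. For both genes control array 2 and water-deprived array 1 were low, and the groups overlap.

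In food deprivation Col4a1 was at log2 -0.19 (SE 0.21) and Col4a2 at -0.40 (SE 0.23), and in water deprivation they were at -0.03 and -0.14. The second Col4a1 probe set had mean signals of 110 in control, 89.6 in water deprivation and 78.1 in food deprivation. The first averaged 103, 98.8 and 86.5. Col4a2 was lower in the high array set (log2 -0.88, SE 0.25, limma adjusted p = 0.0276), and with the set as a term its differences turned to 0.48 (food) and 0.21 (water), neither called. Col4a1 turned likewise to 0.15 and 0.11. Col4a5 and Col4a6, which encode chains of other type IV networks, were at 0.01 and -0.19 in water and -0.0034 and -0.25 in food deprivation.

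Type VI collagen forms beaded filaments between basement membranes and fibrils. Of 5 genes of this class on the array, 4 were tested, and Col6a5 rose in food deprivation. Col6a5 encodes a chain that can take the place of the one from Col6a3. Its signal was 22.9, 14.8, 19.0, 22.9 and 9.81 in control, 33.5, 32.5, 19.7, 16.04 and 17.3 in water deprivation, and 25.3, 42.6, 30.8, 31.2 and 43.6 in food deprivation. The 7 arrays of the high set all lay above the 8 of the low set, and the food-deprived arrays all above control, as for 6.82% of all tested genes.

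Col6a5 rose in food deprivation (log2 0.58, SE 0.16, limma adjusted p = 0.0391) and was at log2 0.22 in water deprivation. This gene is dim, near the filter at a signal of 18.6. The call was lost under quantile normalization, median centring and a filter at the 50th percentile of mean signal, and with the array set as a term the difference was 0.042. In 8 of the 15 fits that left out 1 array the call was lost, with log2 values of 0.49 to 0.65.

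Col6a1, Col6a2 and Col6a3 encode the 3 chains of the common form of type VI. Col6a2 had a signal of 76.6, 37.9, 73.9, 102 and 133 in control, 25.0, 16.3, 102, 59.2 and 72.2 in water deprivation, and 65.3, 43.0, 32.1, 33.0 and 25.2 in food deprivation. Water-deprived arrays 1 and 2 were lowest of all, and arrays 3 to 5 of that group lay well above them. The differences from control were log2 -0.59 (SE 0.33) in water and -0.82 (SE 0.33) in food deprivation, not called, and the high array set was lower (log2 -1.34, SE 0.35, limma adjusted p = 0.0198). Col6a1 was at -0.09 and 0.04, and Col6a3 at -0.27 and 0.01. A second Col6a3 probe set, at a log2 difference of 0.54 in food deprivation (adjusted p = 0.0519), was higher in the high array set (log2 0.67, adjusted p = 0.0139).

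The 3 collagens with the widest range across arrays were not called in the group comparisons. The ratio of the highest to the lowest array had a median of 2.67 over the 33 genes and ran from 1.48 to 37.3. It exceeded 10 for 3 genes, Col8a1 (37.3), Col8a2 (17.0) and Col23a1 (13.7). Col8a1 and Col8a2 encode the chains of type VIII collagen, a short-chain collagen that forms hexagonal lattices in the basement membrane under the corneal endothelium and in vessel walls. The Col8a1 signal was 206, 24.3, 356, 58.7 and 673 in control, 125, 293, 18.0, 212 and 444 in water deprivation, and 179.9, 213, 82.0, 64.7 and 103 in food deprivation. For Col8a2 it was 405, 71.7, 810.2, 124 and 1217 in control, 565, 962, 89.1, 543 and 819.6 in water deprivation, and 726, 608, 330.3, 217 and 348 in food deprivation. Control arrays 2 and 4 and water-deprived array 3 were low for both genes.

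Col9a3, which encodes a chain of type IX collagen on the surface of type II fibrils, had a like order of arrays and a smaller ratio, 4.29. Its signal was 598, 243, 717, 385 and 995 in control, 636, 1045, 251, 569 and 891 in water deprivation, and 559.7, 557, 432, 345 and 441 in food deprivation. Its lowest control and water-deprived arrays were the same 3 arrays. The group differences of Col8a1 were log2 -0.03 in water and -0.40 in food deprivation, with an SE of 0.74. Col8a2 was at 0.48 and 0.27 (SE 0.70) and Col9a3 at 0.21 and -0.19 (SE 0.36), so that the differences of these 3 genes lay within about 1 SE of 0.

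The windows from 120 bases before to 50 after the RefSeq start (GRCr8) of Col8a1 (chr11:56246662-56246831, +) and Col8a2 (chr5:143870649-143870818, +) are shown because the 2 genes had the highest r of the chain pairs computed below. Capitals mark GC boxes on either strand.

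Col8a1: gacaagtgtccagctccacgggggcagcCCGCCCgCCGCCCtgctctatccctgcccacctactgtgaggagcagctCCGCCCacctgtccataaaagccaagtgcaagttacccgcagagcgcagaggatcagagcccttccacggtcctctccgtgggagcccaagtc

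Col8a2: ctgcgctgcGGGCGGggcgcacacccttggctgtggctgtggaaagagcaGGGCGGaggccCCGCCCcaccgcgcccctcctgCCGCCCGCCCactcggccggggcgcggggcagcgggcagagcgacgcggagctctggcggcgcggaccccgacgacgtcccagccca

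The Col8a1 window holds 3 GC boxes and that of Col8a2 holds 5, with neither CCAAT nor TATAAA in either.

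Markers of choroid plexus and ependyma followed the same arrays. Sostdc1, a secreted protein of the choroid plexus epithelium, had a signal of 1723, 109, 2451, 468 and 3501 in control, 2997, 4451, 47.5, 2013 and 2629 in water deprivation, and 2963, 3151, 2096, 1181 and 1882 in food deprivation. Folr1, its folate receptor, ranged from 105 on water-deprived array 3 to 2807 on water-deprived array 2, and Kl, which encodes klotho, read 3.10 on control array 2 and 2.16 on water-deprived array 3. Of the 14 markers on this list, 11 were on the array and tested, and their summed signal ran from 6080 to 19571 in control, from 4201 to 26317 in water deprivation, and from 11269 to 22393 in food deprivation. Of the 11, 10 lay above control in water deprivation (median log2 0.22, 0 called) and 8 in food deprivation (median 0.49, with 0 higher and Ak7 lower called). With the array set as a term these turned to 1 of 11 above control in water deprivation (median -0.25) and 0 of 11 in food deprivation (median -0.78). The median between the high and the low set was 1.18. Of all 11510 tested genes, 5741 (water) and 6275 (food) lay above control in the fit on groups, and 5509 and 5871 with the set term. The mean log2 value of this list was 9.88 and 10.4 on water-deprived arrays 1 and 2. It was 7.22 on array 3 and 9.39 and 9.78 on the other low-set arrays of that group. Array 3 thus weighs on the set difference and the turned signs, and neither was tested without it. The part of choroid plexus and ependyma in the collagen differences between groups was not tested.

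The relation of each collagen to 4 marker lists was computed within each array set, since the sets stand apart, a comparison chosen after the data were seen. It gave 264 correlations across arrays with exact permutation tests, adjusted together. The low set mixes control with water-deprived arrays and the high set food-deprived with water-deprived arrays. Group was not taken into account, so a group difference can enter both r and its p. With the mean log2 value of the choroid plexus and ependyma list, Col8a1 had Pearson's r = 0.99 (Spearman's rho 1.00) over the 8 low arrays (exact permutation, adjusted p = 0.0065 and 0.0131). Col8a2 had r = 0.97 (rho 0.98, adjusted p = 0.0105 and 0.0262) and Col9a3 r = 0.98 (rho 0.95, adjusted p = 0.0105 and 0.0602) over the same arrays by exact permutation. Without the 2 arrays farthest from the median the 3 values were 1.00, 1.00 and 0.97.

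Over the 7 high arrays, Col9a3 had r = 0.97 (rho 1.00, exact permutation, adjusted p = 0.0105 and 0.0262). Col8a2 had r = 0.97 (rho 0.89) with an exact permutation adjusted p of 0.0282 and, for rho, of 0.162. Col8a1 had r = 0.91, with an adjusted p of 0.0629 by exact permutation. Without the 2 farthest arrays these were 0.99, 0.92 and 0.73. Col27a1 (r = 0.96) and, with the opposite sign, Col2a1 (r = -0.92) passed for r and not for rho in the high set, at exact permutation adjusted p of 0.0262 and 0.0175 for r and 0.0667 for both rho. In the low set the r of Col2a1 was 0.06, and that of Col27a1 was 0.88 (exact permutation, adjusted p = 0.0629).

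**Figure D4:**
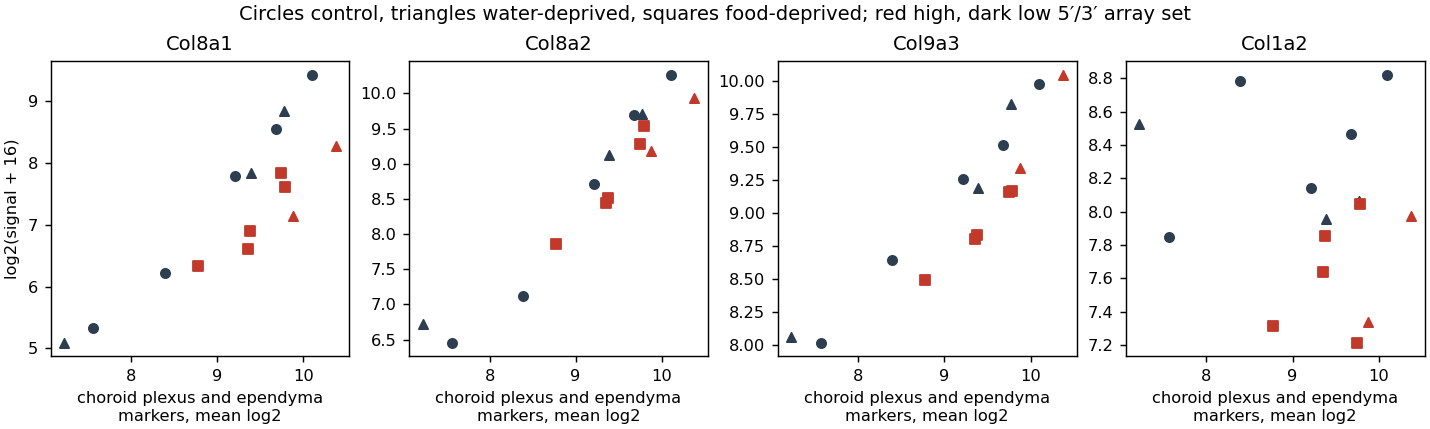
Log2(signal + 16) of Col8a1, Col8a2, Col9a3 and, for contrast, Col1a2 (y axes) against the mean log2 value of 11 choroid plexus and ependyma markers (x axes) on 15 arrays: circles control, triangles water-deprived, squares food-deprived; red high and dark low 5′/3′ set. Col8a1, Col8a2 and Col9a3 rise with the markers in both sets, and Col1a2 shows no such order.

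A list of fibroblast and meningeal markers also tracked Col8a1, Col8a2, Col9a3, Col27a1 and Col4a5 in the low set, with r of 0.87, 0.86, 0.90, 0.89 and 0.96. Of these, Col9a3 alone passed for rho as well (0.98, exact permutation, adjusted p = 0.0262). Col25a1, a transmembrane collagen of neurons whose shed part is found in amyloid plaques, had the opposite sign, with r = -0.98 in the high set (exact permutation, adjusted p = 0.0189) and -0.80 in the low set (adjusted p = 0.205 by exact permutation). In the low set the fibroblast and choroid plexus list means were lowest on control array 2 (7.53 and 7.56) and water-deprived array 3 (7.97 and 7.22). Both were highest on control array 5 (8.69 and 10.1). The relations with these lists are therefore not separate from each other. With mural cell markers 1 of 66 relations passed for r (Col13a1, r = 0.92 in the low set), and with endothelial markers 0 of 66. The median r over the 33 genes with the mural list was 0.48 in the low set and 0.39 in the high set, and with the choroid plexus list 0.20 and 0.030.

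**Figure D5:**
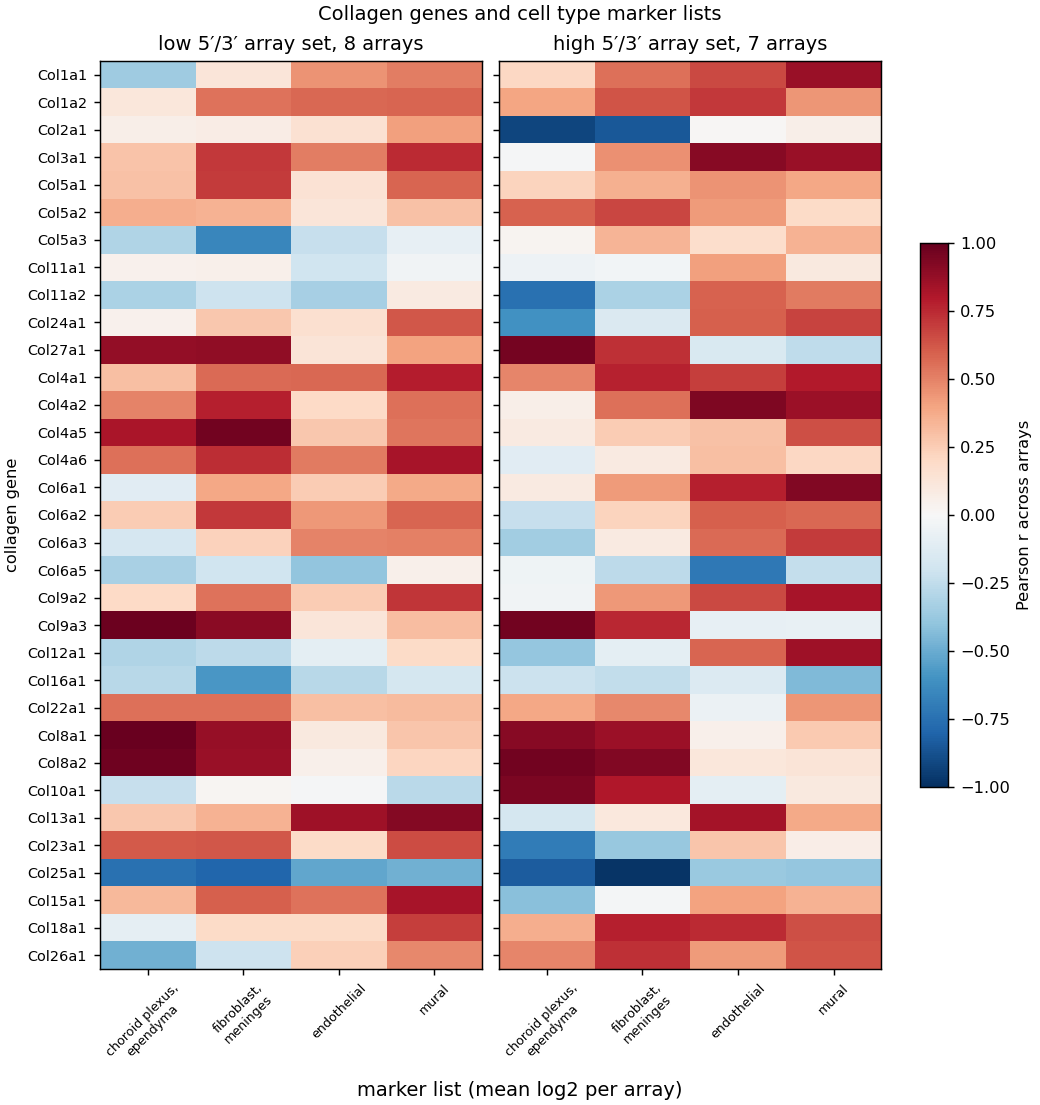
Pearson's r across arrays between each of the 33 tested collagen genes (rows) and the mean log2 value of 4 cell type marker lists (columns), in the 8 arrays of the low set (left) and the 7 of the high set (right). The rows of Col8a1, Col8a2 and Col9a3 are dark red for the choroid plexus and ependyma list in both sets, from 0.91 to 0.99.

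Chains of one collagen molecule, or of collagens made by the same cells, were compared for a chosen set of pairs within each array set, 14 relations in all, with exact permutation tests. Group was not taken into account here either. Col8a1 and Col8a2 had r = 0.99 in the low set (rho 0.98, exact permutation, adjusted p = 0.00174 and 0.00278) and 0.95 in the high set (rho 0.96, adjusted p = 0.0102 and 0.0130). Col1a2 and Col3a1 had r = 0.89 and 0.74 (rho 0.98 and 0.86, exact permutation, adjusted p for r of 0.0094 and 0.0370). Col1a1 and Col3a1 had r = 0.77 and 0.89 (rho 0.86 and 0.89, exact permutation, adjusted p for r of 0.0370 and 0.0281). For these 3 pairs, r stayed at 0.61 or above without the 2 farthest arrays.

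Col1a1 and Col1a2 had r = 0.85 in the low set (rho 0.83, exact permutation, adjusted p = 0.0281) and 0.73 in the high set (rho 0.71, adjusted p = 0.0648). Col4a1 and Col4a2, of the shared promoter, had r = 0.78 and 0.80 with rho of 0.52 and 0.57, passing for r in the high set alone (exact permutation, adjusted p = 0.0325). Col6a1 and Col6a2 had r = 0.84 in the low set (rho 0.88, exact permutation, adjusted p = 0.0281) and 0.44 in the high set, where it was -0.23 without the 2 farthest arrays. Col5a1 and Col5a2 had r = 0.14 and 0.82, neither passing. A pair of Col9a1 and Col9a3 was left out because Col9a1 was below the filter, and other pairs, such as Col11a1 and Col11a2 or Col9a2 and Col9a3, were not computed.

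Of the other fibril-associated collagens, which bind to the surface of fibrils, Col9a2, Col12a1, Col16a1 and Col22a1 were tested and none was called. Their log2 differences were -0.37, -0.38, -0.18 and -0.20 in water deprivation and -0.39, -0.043, -0.0055 and -0.11 in food deprivation. Col12a1 had an SE of 0.12 and a limma adjusted p of 0.69 in water deprivation. Col10a1, the short-chain collagen of growing cartilage, was at 0.24 and 0.20.

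The transmembrane collagens are anchored in the cell membrane and shed their outer part. Col23a1 had a signal of 100.02, 46.7, 82.0, 109 and 72.3 in control, 43.4, 7.92, 49.8, 80.5 and 89.9 in water deprivation, and 64.4, 39.4, 55.0, 54.0 and 50.1 in food deprivation. Water-deprived array 2 was lowest by far. Its differences were log2 -0.61 in water and -0.48 in food deprivation (SE 0.31), not called. Col23a1 was lower in the high array set (log2 -1.22, SE 0.34, limma adjusted p = 0.0259). Array 2 is 1 of the 2 high-set arrays behind this difference, and the call was not tested without it. With the set as a term and 1 array left out, the food-deprived difference of Col23a1 ranged from log2 0.077 to 1.39. Col13a1 was at -0.13 and -0.093, and Col25a1 at 0.26 and 0.24.

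The basement membrane collagens with interrupted helices, Col15a1 and Col18a1, the latter the source of endostatin, were at -0.25 and -0.22 in water and -0.0012 and -0.17 in food deprivation. A second Col18a1 probe set had the opposite sign in food deprivation (log2 0.42, SE 0.18, limma adjusted p = 0.146). Col26a1 was at 0.051 and 0.27. No probe set of these 3 genes was called. The 8 genes below the filter were Col4a4, Col6a6, Col7a1, Col9a1, Col14a1, Col17a1, Col19a1 and Col20a1. Their signals ran from 0.870 to 33.6 over all arrays, with group means of at most 19.8, and they have no test.

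Between the array sets, 4 of the 33 collagens differed, all lower in the high set: Col11a2, Col6a2, Col23a1 and Col4a2. That is to be read beside 14.6% of all tested genes called, 6.48% higher and 8.09% lower. The set difference is estimated within water deprivation, arrays 1 and 2 against the other 3, since control and food deprivation each lie in 1 set. Over the 33 genes the median difference was -0.19, with 22 of 33 below 0, and over all tested genes it was 0.027.

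The partner genes of collagen were counted beside the 5.73% of all tested genes called in food deprivation. Of 30 genes for the modification, folding and crosslinking of collagen, 20 were tested, and in food deprivation 0 rose and 2 fell. P4ha1 encodes the catalytic subunit of prolyl 4-hydroxylase, which stabilises the triple helix. Its signal was 233, 241, 243, 239 and 309 in control, 236, 224, 219, 216 and 215 in water deprivation, and 199, 183, 209, 183 and 208 in food deprivation. All food-deprived arrays lay below all others, and P4ha1 fell (log2 -0.34, SE 0.09, limma adjusted p = 0.0302).

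P3h3, a member of the prolyl 3-hydroxylase family, fell in food deprivation (log2 -0.61, SE 0.18, limma adjusted p = 0.0482). It read 146 and 140.5 on water-deprived arrays 1 and 2 and 257, 248 and 267 on arrays 3 to 5. P3h3 was lower in the high array set (log2 -0.78, limma adjusted p = 0.0088), as were Fkbp10, Mia3 and Plod1. These are 4 of the 20 tested genes of this list, beside 8.09% of all tested genes called lower in that set.

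Of 17 matrix proteins that accompany collagen in connective tissue, 13 were tested, with 1 higher and 1 lower in food deprivation. Ccn2, a matricellular growth factor that stimulates collagen production, had a signal of 62.9, 58.8, 71.0, 59.8 and 88.5 in control, 109.8, 117, 103, 90.4 and 78.9 in water deprivation, and 112, 113, 108, 124 and 82.4 in food deprivation. Control array 5 overlapped both deprived groups and the other 4 controls did not. Ccn2 rose in food deprivation (log2 0.56, SE 0.13, limma adjusted p = 0.0171) and was at log2 0.46 (SE 0.13, adjusted p = 0.604) in water deprivation. Sparc, a collagen-binding glycoprotein, fell in food deprivation (log2 -0.67, SE 0.16, limma adjusted p = 0.0193). It read 703 and 777 on water-deprived arrays 1 and 2 and from 1036 to 1491 on arrays 3 to 5. Sparc was lower in the high array set, as was Bgn, which encodes the proteoglycan biglycan. These are 2 of the 13 tested genes of this list, beside 8.09% of all tested genes.

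In the other partner lists limma called 0 genes in the group comparisons. Of 15 laminins, nidogens and heparan sulfate proteoglycans of the basement membrane, 13 were tested. Agrn, at log2 -0.31 (SE 0.12), and Lama4, at -0.36 (SE 0.17), had the smallest unadjusted p in food deprivation. Of 16 genes of collagen breakdown and its inhibitors, 8 were tested, with Fap at 0.24 (SE 0.10) and Timp3 at -0.42 (SE 0.19). Of 9 collagen receptors 3 were tested, with Ddr1, a receptor kinase, at 0.26 (SE 0.12) and Itgb1 at -0.16 (SE 0.11). Of 14 genes of transforming growth factor beta signalling, the main inducer of fibrillar collagen, 10 were tested, with the inhibitor Smad7 at -0.61 (SE 0.20, limma adjusted p = 0.0714) and Smad3 at 0.30 (SE 0.18).

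In water deprivation 0 genes of these 6 partner lists were called, and with the array set as a term 0 in either comparison with control. Among markers of vessel cells, in food deprivation 1 of 13 endothelial (Cldn5, log2 0.64) and 2 of 10 mural genes (Acta2, 0.56, and Notch3, 0.42) rose and none fell, beside 3.12% of all tested genes higher and 2.62% lower. The summed signal of the mural list ran from 552 to 701 in control and from 621 to 709 in food deprivation, so its ranges overlap. For the fibroblast and meningeal list, 0 of 13 were called, and its sum ran from 5425 to 15773 in control, from 6923 to 17695 in water deprivation and from 7887 to 13827 in food deprivation. Of the other cell type lists, 11 of 12 oligodendrocyte markers lay above control in food deprivation (median log2 0.54) and 2 of 12 in water deprivation (median -0.21). Of all 11510 tested genes, 6275 and 5741 lay above control in these comparisons. All 10 microglial markers lay below control in water deprivation (median -0.39) and 4 of 10 in food deprivation (median 0.056). Neuronal markers had medians of 0.10 in water and 0.22 in food deprivation, and astrocyte and tanycyte markers of -0.15 and 0.10. With the array set as a term, 7 of 12 oligodendrocyte markers lay above control in food deprivation (median 0.036) and 2 of 12 in water deprivation (median -0.35). In that fit the medians in water and food deprivation were -0.25 and 0.21 for microglial markers and 0.054 and 0.30 for neuronal markers. For astrocyte and tanycyte markers they were -0.067 and 0.30. None of the markers on these 4 lists was called in the comparisons with control. The part of these cells and of vessel and meningeal tissue in the collagen differences was not tested.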

How the data were processed

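RNA of pooled subfornical organs was extracted with QIAzol and RNeasy MinElute columns and labelled by MessageAmp II biotin amplification, per the labels' protocols. The authors deposited linear signal intensity for each probe set, and the submitters' processing notes name GCOS 1.2. The trimmed mean (2% trimmed at each end) is 100.02 to 100.03 on all 15 arrays, so no further normalization was applied. Dim signal is not aligned by this scaling. The 25th percentile was 15.7 to 17.4 on the high-set arrays and 12.4 to 14.2 on the low-set arrays. The median was 43.9 to 46.7 and 38.1 to 42.8. Dim genes such as Col6a5 lie near the first of these levels. Arrays give no counts, and their number limits the precision.

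Log2(signal + 16) was fitted by group means in limma 3.58.1 (R 4.3.3, 12 residual degrees of freedom, variance trend, two-sided), or with the array set (cut at a log2 5′/3′ ratio of -1) as a term (11). Of 31099 probe sets, 57 controls were left out, and 21729 with a mean above the 30th percentile (signal 18.6), for 11510 genes, were tested and adjusted together. The fit, tested on simulated data over 21729 probe sets for food deprivation against control, recovered 88% of changes of log2 1 and 100% of log2 2. It also made 17 false calls. The simulated noise was independent between probe sets and held no array set effect. Changes below log2 1, such as those of all called collagens, were not simulated. Correlations and figures used Python 3.11.15, scipy 1.17.1 and matplotlib 3.10.9.

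All 41 collagen genes are named. Values per array are given for genes called in any comparison and for Col1a1, Col1a2, Col2a1, Col3a1, Col4a1 and Col4a2, and for others singled out after their values were seen. Of partner lists, called members are named, or the 2 with the smallest unadjusted p. The members and lists were chosen with earlier results of these data known. All 41 gene identifiers are in RefSeq. Promoters of Col2a1 and Col3a1 are not shown. The alternatives were other normalizations, offsets, filters, variance models, a fit on the 10 arrays of 1 comparison, a 1.5-fold minimum, a replicate block, the mean over a gene's probe sets, and leaving out each array.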

Additional observations from a re-analysis of the deposited data

Results flagged for a closer look

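In 99 groups of 5 arrays (33 genes in 3 groups), 2 values lay apart from the rest of their group, where chance alone is expected to give about 1 in 20. Food-deprived array 1 had a Col4a2 log2 value of 7.27 (signal 138), above the next highest at 6.79, and it was also the highest food-deprived array for Col1a1, Col1a2, Col3a1, Col4a1 and Col6a2. Water-deprived array 3 had a Col8a2 log2 value of 6.72 (signal 89.1), below the next lowest at 9.13, and it also had the lowest signal of the choroid plexus markers Sostdc1 (47.5) and Folr1 (105). The same array had the lowest log2 5′/3′ ratio (-2.81) and the lowest median signal (38.1) of all arrays.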

How the results depend on the processing

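Col2a1 kept its food deprivation call in 15 of 15 fits with 1 array left out. It lost it at a minimum of 1.5-fold and with the array set term (adjusted p = 0.697; 0.849 with quantile normalization), and it was not tested under the filter at the 50th percentile or with the mean over probe sets. The number of collagens called higher in food deprivation, 1 in the fit on groups, was 0 with quantile normalization, median centring, the filter at the 50th percentile, a minimum of 1.5-fold, the replicate block, the array set term, and that term with quantile normalization, and 2 with no filter, where Col4a4 is also tested. The number called lower, 4, was 10 with array weights, which called 3458 probe sets higher and 2382 lower in place of 1037 and 817. It was 6 with only the 10 arrays compared and with median centring, 3 with no filter and with the filter at the 50th percentile, 2 with a minimum of 1.5-fold, 1 with the replicate block (Col2a1), 1 with the mean over the probe sets of a gene, and 0 with the array set term, with or without quantile normalization. Between the deprivations array weights gave 2 lower calls in place of 0. Deviations of same-numbered arrays from their group means correlated at -0.36 to 0.37. Differently numbered arrays were not compared, so whether replicate numbers pair the arrays is not settled by these values.

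With 1 array left out, the food deprivation calls ranged from 0 to 1 higher and from 1 to 5 lower, and those of the other comparisons were 0. Col11a1 lost its call without any 1 control or food-deprived array (10 of 15 fits, log2 -0.45 to -0.33). Col11a2 (9 fits, -1.11 to -0.90) lost it without any of them but control 5, Col1a2 (9 fits, -0.94 to -0.70) without any but control 2 and food-deprived 1, and without water-deprived 5, and Col6a5 (8 fits, 0.49 to 0.65) without any but control 4 and food-deprived 1.

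The array set term turned the sign of Col11a2 (0.33), Col1a1 (0.16), Col3a1 (0.26), Col4a1 (0.15) and Col4a2 (0.48) in food deprivation and of Col4a1 (0.11) and Col4a2 (0.21) in water deprivation. With quantile normalization as well the values were 0.32, 0.19, 0.24, 0.15 and 0.47, and 0.12 and 0.21. Over all 33 genes it turned the sign of 15 in food deprivation, 5 in water deprivation and 11 between the deprivations. The cause was not tested. With 1 array left out, over 30 fits with or without the array set term, 28 of 33 genes took both signs in food deprivation and 17 of 33 in water deprivation. Without the term these were 12 and 9 of 33 over 15 fits. The genes followed in every setting were 9 (Col1a1, Col1a2, Col2a1, Col3a1, Col4a1, Col4a2, Col6a5, Col11a1 and Col11a2). Over the 30 fits with 1 array left out, their differences that changed sign ranged in food deprivation from -1.11 to 0.47 (Col11a2), -0.26 to 0.57 (Col1a1), -0.94 to 0.043 (Col1a2), -0.39 to 0.54 (Col3a1), -0.34 to 0.49 (Col4a1), -0.57 to 0.64 (Col4a2) and -0.051 to 0.65 (Col6a5). In water deprivation they ranged from -0.52 to 0.020 (Col3a1), -0.18 to 0.24 (Col4a1), -0.31 to 0.30 (Col4a2) and -0.087 to 0.30 (Col6a5). Of these, Col1a1 in food deprivation and Col4a1 and Col4a2 in water deprivation turned without the term. Other settings went beyond these ranges for Col1a1 and Col6a5. Col1a1 reached -0.55 in food deprivation with the mean over its probe sets. With an offset of 1, Col6a5 reached 0.95 in food and 0.39 in water deprivation. The number of arrays and dim signal, for Col6a5 and the 8 untested genes, limit what can be seen.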

Other observations

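Control array 5 had the highest Col8a1, Col8a2, Col9a3 and Col27a1 signals of the 5 control arrays (673, 1217, 995 and 219) and the lowest Col25a1 signal of all 15 arrays (77.1). For Col25a1 the highest signal was on food-deprived array 4 (249.9), the array with the lowest food-deprived signals of Col8a1, Col8a2, Col9a3 and Col27a1.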
